A study of Mus musculus with 12 samples.

Results

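The respiratory chain was described gene by gene in cultured mouse astrocytes transduced to express GADD45G or an shRNA against it, and in their controls. Members were the protein-coding genes named Nduf, Cox4 to Cox8, Uqcr, Atp5 or Sdha to Sdhd, together with the protein-coding genes of the mitochondrial chromosome. The rule found 105 genes among the 25923 listed in the overexpression table, 92 of them nuclear and 13 mitochondrial. It found 103 among the 24509 listed in the knockdown table, where Cox8b and Cox8c were not listed. The nuclear members comprised 36 subunits of complex I, 8 assembly factors of complex I, 4 subunits of complex II, 8 of complex III, 17 of complex IV (15 in the knockdown table), 16 of the ATP synthase and 3 genes that are not standard subunits (Ndufa4l2, Cox7a2l and Atp5s). The rule rests on gene names, biotype and chromosome, and was set with earlier results of these data known.

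The cells were primary astrocytes from the cortex of C57BL/6J mice at postnatal day 3, grown with 10% FBS, transduced with virus and then held in medium without serum for 1 week. Total RNA was sequenced in 12 libraries, 3 in each of 4 groups. Cells transduced to express GADD45G were set against cells expressing GFP, and cells carrying an shRNA against GADD45G, labelled shGADD45G, against cells carrying an shRNA labelled shLuc. All 4 groups were transduced and serum-starved, so none shows untreated cells. Neither the introduced GADD45G sequence nor the vector promoters, the share of cells transduced or the number of animals per culture were stated in the labels. Since nothing there says that replicates came from different cultures, the p-values speak only to the variation among libraries of a group, part of which could be technical.

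The respiratory chain passes electrons from NADH through complex I, or from succinate through complex II, to complex III, cytochrome c and complex IV, where oxygen is reduced. Complexes I, III and IV pump protons across the inner mitochondrial membrane, and the ATP synthase uses the gradient to make ATP. Complex II is encoded wholly in the nucleus, whereas the other complexes combine nuclear subunits with a few made inside mitochondria from the mitochondrial chromosome, so their assembly draws on transcripts of both genomes. Astrocytes respire but are also known for a high rate of glycolysis.

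Gadd45g, the targeted gene, stood at 121, 133 and 134 CPM (a count per library, rescaled so that libraries of different depth compare) in the GFP libraries and at 149, 144 and 139 CPM in the libraries labelled GADD45G, a log2 fold change of 0.15 ± 0.054 (SE; edgeR adjusted p = 0.030). That call was lost without GFP library 1 (adjusted p = 0.16), without GADD45G library 1 (0.095) and without GADD45G library 2 (0.053). It stood at 140, 151 and 129 CPM with shLuc and at 67.1, 147 and 122 CPM in libraries labelled shGADD45G (log2 fold change -0.32 ± 0.22, edgeR adjusted p = 0.41). The labels are therefore only weakly reflected in this gene's count, and a low level was seen in 1 of the 3 shGADD45G libraries. Library totals ran from 15626655 to 20756461 counts. Pairs of shGADD45G libraries differed more than any other replicates, with a chi-square per degree of freedom of 20.5 to 41.0 against 2.23 to 2.98 between shLuc libraries, 2.11 to 3.15 between GFP libraries and 4.23 to 18.8 between GADD45G libraries. Summed levels of 8 astrocyte markers ran from 2406 to 4644 CPM across all 12 libraries.

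Several mitochondrial genes have nearly identical copies on chromosome 1, which bears on every value given for them. A stretch of mt-Co3, a subunit of complex IV, is given here with the matching stretch of Gm28437, a pseudogene on chromosome 1, since reads from the one cannot be placed apart from reads of the other. The mt-Co3 stretch lies at chrM:8968-9027 on the plus strand and the Gm28437 stretch at chr1:24613551-24613610 on the minus strand, in GENCODE M21 (mm10) coordinates. The letters are the same throughout, so none is in capitals.
mt-Co3: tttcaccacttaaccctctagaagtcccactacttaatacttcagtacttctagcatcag
Gm28437: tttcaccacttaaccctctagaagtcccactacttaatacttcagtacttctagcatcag

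Of all windows of 100 bases, 97.6% to 99.9% were shared with other annotated transcripts in mt-Atp6, mt-Co2, mt-Co3, mt-Nd3 and mt-Nd4l. The share was 60.8% in mt-Nd4, 30.8% in mt-Co1 and 3.20% in mt-Nd2, and 0% in mt-Nd1, mt-Nd5, mt-Nd6, mt-Cytb and mt-Atp8. The copies of mt-Atp6, mt-Co2, mt-Co3, mt-Nd4 and mt-Nd4l (Gm10925, Gm28661, Gm28437, Gm28439 and Gm10222) had 0 mismatches over their aligned bases, and that of mt-Nd3 (Gm28438) had 1 mismatch over 345 bases. The 5 mostly shared genes also had low counts, and their values below are uncertain. In the GFP libraries, TPM, a level per length scaled to a common total, had a median of 7404 to 7671 over the 6 abundant genes with at most 30.8% of windows shared. It was 156 to 171 TPM over the 5 mostly shared genes and 177 to 185 TPM over the nuclear subunits. Only annotated transcripts were searched, and a copy outside them would not be seen.

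**Figure D1:**
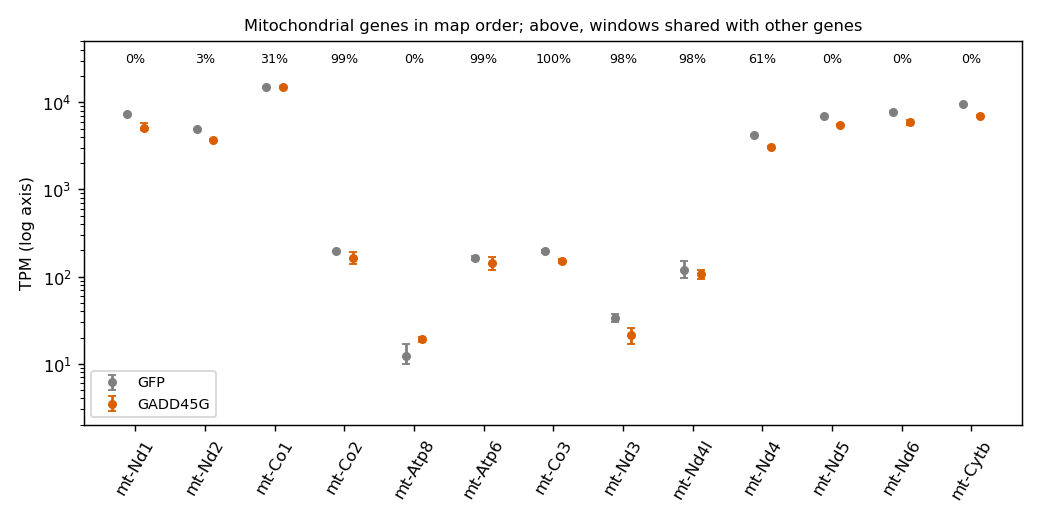
Level per length (TPM, log axis) of the 13 mitochondrial genes in the overexpression experiment, in the order of the mitochondrial map. Points are means of 3 libraries, bars run from the lowest to the highest library, and the percentage above each gene is the share of its 100-base windows found in other annotated transcripts. The 5 genes with 97.6% to 99.9% of windows shared, and mt-Atp8, lie below the other 7.

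Mitochondrial and nuclear members alike took a smaller share of the counts in the GADD45G libraries than in the GFP libraries. The 13 mitochondrial genes held 1.99%, 1.99% and 1.98% of all counts in the GFP libraries and 1.66%, 1.61% and 1.77% in the GADD45G libraries. The nuclear members held 0.926%, 0.956% and 0.946% in the GFP libraries and 0.818%, 0.763% and 0.800% in the GADD45G libraries. Every GADD45G library lay below every GFP library in both shares. The log2 difference of the group means was -0.24 for the mitochondrial and -0.25 for the nuclear genes. Each had an exact two-sided permutation p = 0.1 (0.3 after Benjamini-Hochberg adjustment over 6 tests). That is the smallest p that 3 libraries against 3 can give, and the members were chosen with earlier results known. These permutation tests therefore decide nothing about the set. The ratio of mitochondrial to nuclear counts was 2.15, 2.08 and 2.09 in the GFP libraries and 2.02, 2.11 and 2.21 in the GADD45G libraries, so the groups overlapped (exact two-sided permutation p = 0.9). mt-Co1 alone held 0.666%, 0.665% and 0.663% of all counts in the GFP libraries and 0.657%, 0.670% and 0.715% in the GADD45G libraries. It therefore weighs heavily in this ratio, and a ratio without it was not computed. Per gene, the median log2 fold change was -0.34 over the mitochondrial and -0.18 over the nuclear members. In such bulk cultures, fewer cells of a type and less RNA per cell cannot be told apart.

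In the knockdown experiment the balance differed mainly between the shGADD45G libraries themselves. The mitochondrial genes held 2.05%, 2.04% and 2.14% of counts in the shLuc libraries and 1.63%, 2.14% and 3.27% in the shGADD45G libraries. The nuclear members held 1.02%, 1.03% and 0.981% in the shLuc libraries and 0.992%, 0.998% and 0.845% in the shGADD45G libraries. The mitochondrial to nuclear ratio was 2.01, 1.98 and 2.18 in the shLuc libraries and 1.65, 2.14 and 3.87 in the shGADD45G libraries. Library 1 lay below all shLuc libraries in this ratio, library 2 lay among them and library 3 lay above them. Exact two-sided permutation p-values were 0.8 for the mitochondrial share, 0.3 for the nuclear share and 0.8 for the ratio. With 3 libraries against 3 such a p cannot be lower than 0.1, so no conclusion is drawn from them.

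**Figure D2:**
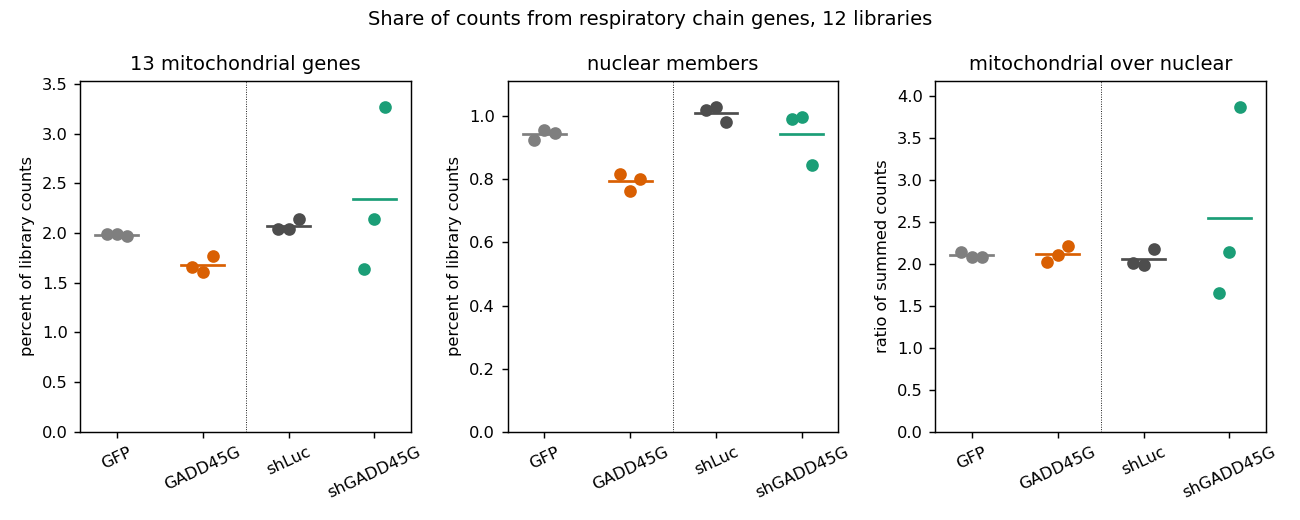
Percent of each library's counts that came from the 13 mitochondrial genes (left) and from the nuclear members (middle), and the ratio of these sums (right). Each point is 1 library, lines are group means, and axes start at 0. The shGADD45G library with a ratio of 3.87 stands above the other 11, which run from 1.65 to 2.21.

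Of the 13 mitochondrial genes, all of which were tested, 7 fell in the GADD45G libraries and 0 rose. A gene was called where edgeR's quasi-likelihood test gave an adjusted p under 0.05 over all 15418 genes tested, and 60.3% of those genes were called, 30.6% higher and 29.7% lower. The median log2 fold change was -0.34 over the mitochondrial genes and 0.014 over all genes tested. Among the subunits of complex I, mt-Nd1 stood at 2014, 1999 and 1935 CPM in the GFP libraries and at 1366, 1339 and 1608 CPM in the GADD45G libraries. Its groups did not overlap, and its log2 fold change was -0.46 ± 0.063 (SE; edgeR adjusted p = 7.05e-05).

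The other complex I genes that fell were mt-Nd4 (log2 fold change -0.43), mt-Nd2 (-0.39), mt-Nd6 (-0.37) and mt-Nd5 (-0.28), each with an edgeR adjusted p of at most 0.00013. mt-Nd6, the only one of the 13 protein-coding genes read from the opposite strand, stood at 1152, 1176 and 1153 CPM with GFP and at 960, 818 and 907 CPM with GADD45G. Its count ratio to mt-Nd5, the neighbouring gene on the other strand, was 0.319, 0.328 and 0.323 with GFP and 0.315, 0.286 and 0.307 with GADD45G. mt-Nd3, at 3.73, 2.96 and 3.17 CPM against 2.23, 1.68 and 2.60 CPM, was not called (log2 fold change -0.60, edgeR adjusted p = 0.052), nor was mt-Nd4l (-0.10, edgeR adjusted p = 0.62).

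mt-Cytb, the cytochrome b of complex III, stood at 3146, 3123 and 3109 CPM with GFP and at 2328, 2251 and 2427 CPM with GADD45G, with no overlap (log2 fold change -0.42 ± 0.037, edgeR adjusted p = 2.40e-06). The complex IV genes did not move together. mt-Co1, the catalytic subunit that holds the heme and copper centre, was the most abundant mitochondrial gene at 6620, 6586 and 6570 CPM with GFP and 6694, 6832 and 7049 CPM with GADD45G, and it was not called (log2 fold change 0.06 ± 0.032, edgeR adjusted p = 0.15). mt-Co3 fell from 42.2, 44.9 and 45.5 CPM to 35.7, 32.3 and 37.0 CPM (log2 fold change -0.34, edgeR adjusted p = 0.00074), and mt-Co2 was not called (-0.21, edgeR adjusted p = 0.10). Of the ATP synthase genes, mt-Atp6 had a log2 fold change of -0.16 (edgeR adjusted p = 0.23) and mt-Atp8, at 0.573 to 1.23 CPM, one of 0.66 (edgeR adjusted p = 0.13).

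The unequal change can be read within each library as the ratio of mt-Co1 to mt-Nd1 counts, which no scaling between libraries touches. The ratio was 3.29, 3.29 and 3.40 in the GFP libraries and 4.90, 5.10 and 4.38 in the GADD45G libraries. It was 5.02, 5.08 and 4.97 in the shLuc libraries and 5.30, 4.82 and 4.93 in the shGADD45G libraries. The GFP libraries lay below the other 9, among them the shLuc controls, so the 2 control groups differed in this ratio more than the shGADD45G libraries differed from shLuc. The ratio of mt-Co1 to mt-Cytb was 2.10 to 2.11 with GFP, 2.88 to 3.03 with GADD45G, 2.54 to 2.60 with shLuc and 2.505 to 2.84 with shGADD45G.

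None of the 13 mitochondrial genes was called in the knockdown experiment, where 10.4% of the 14914 genes tested were called with edgeR, 5.15% higher and 5.27% lower, and 0 of the 13 had an unadjusted p under 0.05. DESeq2 and limma-voom also called 0 of them. Their median log2 fold change was 0.22, against 0.0066 over all genes tested, and it turned to -0.09 without shGADD45G library 3. mt-Nd1 stood at 1587, 1534 and 1645 CPM with shLuc and at 1250, 1725 and 2587 CPM with shGADD45G. mt-Co1 stood at 7968, 7789 and 8184 CPM with shLuc and at 6627, 8315 and 12767 CPM with shGADD45G. Library 1 was below and library 3 above the shLuc libraries for both genes. Without shGADD45G library 1, 4 of the 13 were called higher, namely mt-Nd1, mt-Nd4, mt-Cytb and mt-Atp6. Their log2 fold changes were 0.44, 0.42, 0.40 and 0.74, with edgeR adjusted p-values of 0.039, 0.048, 0.049 and 0.050. In that fit more of all genes were called as well, 1379 higher and 1366 lower of 15191 tested.

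**Figure D3:**
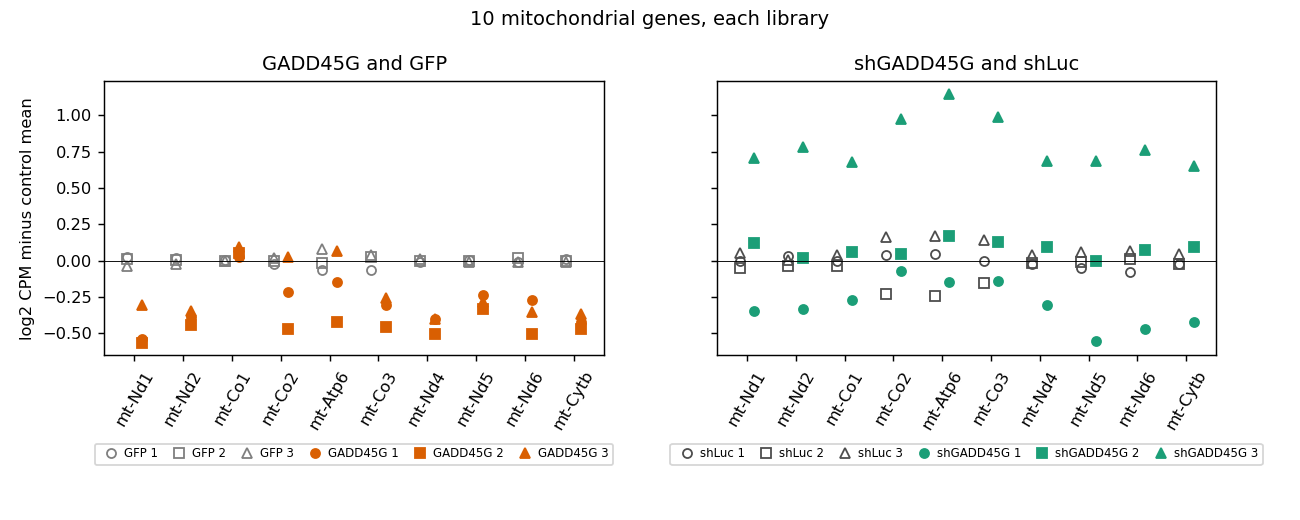
Each library's log2 CPM minus the log2 of its control group's mean CPM for 10 mitochondrial genes, for the overexpression experiment (left) and the knockdown experiment (right). Open symbols are control libraries and filled symbols treated ones, with a shape for each library number. In the left panel mt-Co1 lies near 0 in the GADD45G libraries while mt-Nd1, mt-Nd2, mt-Nd4 and mt-Cytb lie lower. In the right panel shGADD45G library 3 lies above 0 and library 1 below 0 for all 10 genes.

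The mitochondrial chromosome also carries ribosomal and transfer RNA genes, which are not members. In the GADD45G libraries mt-Rnr1, the small ribosomal RNA, rose from 94.9, 93.1 and 94.1 CPM to 148, 142 and 207 CPM (log2 fold change 0.82 ± 0.12, edgeR adjusted p = 0.00012). mt-Rnr2, the large ribosomal RNA, had a log2 fold change of -0.03 (edgeR adjusted p = 0.87). Of the transfer RNA rows, mt-Tn, mt-Tc, mt-Tp and mt-Ty, all on the minus strand, were higher. mt-Tl1, on the plus strand, was lower, and mt-Te, on the minus strand, was not called. How strand was set in the counting is not stated, so these rows may hold reads of the opposite strand. None of the ribosomal and transfer RNA rows named here was called in the knockdown experiment.

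Among the nuclear members, 88 of 92 were tested in the overexpression experiment. In the GADD45G libraries 47 fell and 7 rose, 61.4% of those tested, close to the 60.3% called among all genes. The direction was uneven: 53.4% of the tested nuclear members fell, against 29.7% of all genes, and 7.95% rose, against 30.6%. Their median log2 fold change was -0.18, and the median over these genes of each GADD45G library against the GFP mean was -0.13, -0.19 and -0.18 (SD within groups 0.030, pooled over both groups of 3), below those of the GFP libraries at -0.028 to 0.029. With shGADD45G, 88 of 90 were tested, 3 rose and 2 fell, 5.68% against 10.4% of all genes. An unadjusted p under 0.05 was found in 16 of the 88, and in 3790 of the 14914 genes tested. The median there was -0.08.

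Cell type markers moved between the same libraries. In the GADD45G libraries the summed level of 8 listed neuron markers was 70.8 to 78.1 CPM, against 241 to 248 CPM with GFP, and 7 of the 7 tested fell. That of 8 oligodendrocyte lineage markers was 117 to 132 CPM against 583 to 597 CPM, although of the 7 tested 3 rose and 2 fell. That of 5 ependymal markers, which all rose, was 860 to 928 CPM against 289 to 297 CPM, and that of 8 astrocyte markers, of which 7 rose, 4069 to 4644 CPM against 2406 to 2415 CPM. The sum of 6 fibroblast and mural markers was 433 to 645 CPM against 938 to 964 CPM, with 2 higher and 2 lower of the 4 tested. The sum of 7 endothelial markers was 13.9 to 76.9 CPM against 136 to 143 CPM, with 2 higher and 1 lower of the 3 tested. The sum of 8 microglia and macrophage markers was 9.59 to 40.9 CPM against 25.5 to 28.9 CPM, and 1 of the 8 fell. With shGADD45G the 8 microglia and macrophage markers, of which 6 fell, summed to 9.62 to 34.0 CPM, against 93.0 to 110 CPM with shLuc, and 8 astrocyte markers, of which 5 fell, to 3390 to 3541 CPM against 4462 to 4502 CPM. The 5 fibroblast and mural markers listed there summed to 402 to 619 CPM against 318 to 326 CPM (1 of 4 tested rose), and the 5 ependymal markers to 472 to 870 CPM against 720 to 762 CPM (3 fell). Neuron markers summed to 63.0 to 90.7 CPM against 92.1 to 94.1 CPM (0 of 4 tested called with edgeR, DESeq2 and limma-voom, 1 at an unadjusted p under 0.05), oligodendrocyte lineage markers to 115 to 173 CPM against 115 to 123 CPM (1 of 6 tested fell) and endothelial markers to 16.3 to 24.1 CPM against 18.7 to 21.2 CPM (1 of 4 tested fell). The part of these shifts in the values of the respiratory chain genes was not tested.

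Of the 36 nuclear complex I subunits, all tested, 19 fell and 2 rose with GADD45G, with a median log2 fold change of -0.15. The 29 accessory subunits, which surround the catalytic core, had 17 lower and 1 higher (median -0.17), and the 7 core subunits, which carry the cofactors, had 2 lower and 1 higher (median 0.01). The difference between core and accessory subunits was not tested. Ndufa1, a small accessory subunit of the membrane arm, stood at 52.1, 54.1 and 56.0 CPM with GFP and at 33.0, 29.0 and 35.02 CPM with GADD45G, with no overlap (log2 fold change -0.74 ± 0.069, edgeR adjusted p = 3.40e-06). Ndufb2, at 5.26, 8.11 and 7.51 CPM against 4.29, 2.44 and 4.87 CPM, was the accessory subunit with the largest fall (-0.85 ± 0.26, edgeR adjusted p = 0.015), a call lost without GFP library 2 or 3 (adjusted p = 0.092 and 0.074). Ndufb4 (-0.37) and Ndufb6 (-0.31) also fell, but 33.4% of the windows of Ndufb4 are shared with other transcripts and 39% of the exon bases of Ndufb6 overlap a gene of the opposite strand.

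The core subunits that fell were Ndufs7 (log2 fold change -0.22, edgeR adjusted p = 0.033), which holds the last iron-sulfur cluster before ubiquinone, and Ndufs3 (-0.16, edgeR adjusted p = 0.013). Ndufv1, the core subunit that binds NADH and flavin, was higher at 108, 99.1 and 96.1 CPM against 86.1, 89.1 and 90.8 CPM (0.19 ± 0.056, edgeR adjusted p = 0.012), a call lost without GFP library 1 (adjusted p = 0.064). Ndufab1, the mitochondrial acyl carrier protein, was the accessory subunit that passed in the upward direction, at 59.9, 56.7 and 58.9 CPM against 52.8, 55.5 and 53.6 CPM (0.12, edgeR adjusted p = 0.049). With DESeq2 its adjusted p was 0.19.

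The 8 complex I assembly factors, which build the complex but are not part of it, had 3 higher and 1 lower with a median of 0.24. Ndufaf1, which acts in building the membrane arm, stood at 20.2, 18.9 and 15.4 CPM with GFP and at 21.5, 24.9 and 21.1 CPM with GADD45G (0.31 ± 0.11, edgeR adjusted p = 0.032). That call was lost without GFP library 2 or 3 and without GADD45G library 2 (adjusted p = 0.053, 0.10 and 0.12). Ndufaf7, a methyltransferase that modifies a core subunit, stood at 31.9, 33.9 and 32.3 CPM against 39.1, 38.4 and 36.8 CPM (0.22 ± 0.056, edgeR adjusted p = 0.0056). Ndufaf3 was also higher (0.20), and Ndufaf8, a partner of Ndufaf5 in human cells, fell from 30.02, 25.5 and 28.7 CPM to 23.8, 22.2 and 20.2 CPM (-0.35, edgeR adjusted p = 0.0055). Ndufaf2 was not called (0.32, edgeR adjusted p = 0.060), and 65.7% of its exon bases overlap a transcript of the opposite strand.

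Complex II is the succinate dehydrogenase, shared with the citric acid cycle, and 3 of its 4 genes fell with GADD45G (median -0.32). Sdha, the flavoprotein that oxidises succinate, stood at 565, 564 and 562 CPM with GFP and at 392, 411 and 371 CPM with GADD45G, with no overlap (log2 fold change -0.53 ± 0.046, edgeR adjusted p = 2.03e-06). The membrane anchors Sdhd and Sdhc fell by 0.39 and 0.25 on the log2 scale (edgeR adjusted p = 0.00011 and 0.0015). Sdhb, the iron-sulfur subunit between them, stood at 97.0, 92.8 and 92.4 CPM against 101, 94.8 and 95.5 CPM and was not called (0.05, edgeR adjusted p = 0.43). Per listed gene length, the ratio of Sdha to Sdhb was 3.16, 3.30 and 3.30 with GFP and 2.10, 2.35 and 2.10 with GADD45G. The listed lengths, 4126 and 2239 bases, exceed those of the longest annotated transcripts, 2900 and 1232 bases, so the size of the ratio depends on the length used.

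The same ratio per length was 3.60, 3.37 and 3.50 with shLuc and 2.79, 2.64 and 1.93 with shGADD45G, so it was lower in each treated library than in its own controls in both experiments. In the knockdown experiment, however, Sdha at 575, 562 and 559 CPM against 482, 491 and 376 CPM was not called with edgeR (-0.33 ± 0.10, adjusted p = 0.074; DESeq2 adjusted p = 0.032), nor was Sdhb at 86.7, 90.6 and 86.7 CPM against 93.9, 101 and 106 CPM (0.19, edgeR adjusted p = 0.17).

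Complex III split, with 2 of its 8 nuclear subunits lower and 2 higher with GADD45G (median -0.07). Uqcr11, a small membrane subunit, stood at 95.02, 105 and 105 CPM with GFP and at 72.9, 62.1 and 63.6 CPM with GADD45G (-0.62 ± 0.069, edgeR adjusted p = 1.44e-05). Uqcrh, the hinge protein next to cytochrome c1, stood at 105, 113 and 113 CPM against 71.9, 64.4 and 79.6 CPM (-0.61 ± 0.072, edgeR adjusted p = 2.43e-05). Neither gene's groups overlapped. The 2 that rose were Uqcrc1, a core protein of the complex (0.18 ± 0.058, edgeR adjusted p = 0.022), and Uqcrq, a small subunit bound to cytochrome b (0.17 ± 0.056, edgeR adjusted p = 0.024). Both lost their call without GFP library 1 (adjusted p = 0.076 and 0.11) and without GADD45G library 1 (0.087 and 0.083), and Uqcrc1 also without GFP library 3 (0.058).

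Complex IV, cytochrome c oxidase, had 9 of its 14 tested nuclear subunits lower and 0 higher with GADD45G (median -0.34). Cox6b2, known as the testis form of the Cox6b subunit, stood at 133, 137 and 146 CPM with GFP and at 77.0, 64.1 and 69.8 CPM with GADD45G (-0.98 ± 0.068, edgeR adjusted p = 3.21e-07). Cox6b1, the widely expressed form, stood at 150, 157 and 150 CPM against 104, 82.1 and 101 CPM (-0.67 ± 0.079, edgeR adjusted p = 2.60e-05). Per listed gene length (1108 and 708 bases), the ratio of Cox6b2 to Cox6b1 was 0.570, 0.557 and 0.623 with GFP and 0.472, 0.499 and 0.440 with GADD45G. It was 0.651, 0.677 and 0.652 with shLuc and 1.03, 0.724 and 0.793 with shGADD45G. The longest annotated transcripts have 585 and 618 bases, and the plain count ratio with GFP was 0.891, 0.871 and 0.974. The size of the ratio therefore depends on the length used, but its direction between groups does not. The ratio was thus lower than in the controls in each GADD45G library and higher than in the controls in each shGADD45G library, although neither form was called in the knockdown experiment (Cox6b2 log2 fold change 0.20, edgeR adjusted p = 0.53; Cox6b1 -0.17, edgeR adjusted p = 0.46).

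Ndufa4, named as a complex I gene but found in complex IV, fell from 209, 213 and 210 CPM to 112, 103 and 119 CPM, with no overlap (-0.92 ± 0.056, edgeR adjusted p = 9.78e-08). Cox7a2, Cox8a and Cox6a1, the forms of these subunits found in most tissues, fell by 0.53, 0.49 and 0.27 on the log2 scale (edgeR adjusted p = 0.0024, 1.45e-05 and 0.0016). Cox8a had the highest level per length of the nuclear members, at 1578 TPM with GFP and 1091 TPM with GADD45G. Cox4i1, the widely expressed form of subunit 4, fell by 0.12 (edgeR adjusted p = 0.035), and that call was lost without any one GFP library and without GADD45G library 2 (adjusted p = 0.080 to 0.14). Cox5b, which binds zinc, was at 88.1, 97.6 and 87.6 CPM against 89.2, 93.1 and 93.9 CPM and was not called (0.02, edgeR adjusted p = 0.83).

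Other forms of these subunits known from muscle, lung or testis were near the limit of detection. Cox7a1 stood at 0.830 to 1.74 CPM and Cox4i2 at 0.0975 to 0.830 CPM across the GFP and GADD45G libraries, and neither was called (edgeR adjusted p = 0.39 and 0.29). Cox6a2, Cox8b, Cox8c and Ndufa4l2, a relative of Ndufa4 known as a hypoxia target, did not pass the filter on low counts. Cox6a2 and Ndufa4l2 stood at 2.05 and 1.33 CPM in GADD45G library 3 and at no more than 0.223 CPM in the other 5 libraries of that experiment. Cox7a2l, which links complexes III and IV into supercomplexes in its long form, fell from 130, 144 and 141 CPM to 111, 101 and 115 CPM (-0.35 ± 0.062, edgeR adjusted p = 0.00056). Which form these cells carried was not examined, so the fall says nothing about supercomplexes.

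Of the 16 nuclear genes of the ATP synthase, 12 fell and 0 rose with GADD45G (median -0.27). Atp5k, the e subunit of the membrane part, which helps hold the enzyme in dimers, stood at 46.1, 42.9 and 43.3 CPM with GFP and at 27.7, 16.7 and 20.7 CPM with GADD45G, with no overlap (-1.03 ± 0.14, edgeR adjusted p = 6.56e-05). Atp5e, the epsilon subunit of the central stalk, stood at 121, 132 and 128 CPM against 94.8, 76.0 and 89.7 CPM (-0.55 ± 0.076, edgeR adjusted p = 7.95e-05). Other members of the stalks and membrane part that fell included Atp5mpl (-0.53), Atp5j2 (-0.52) and Atp5o (-0.38). The catalytic alpha subunit Atp5a1 fell by 0.20 (edgeR adjusted p = 0.0017), whereas the catalytic beta subunit Atp5b, at 791, 791 and 800 CPM against 784, 789 and 716 CPM, was not called (-0.06, edgeR adjusted p = 0.30). Of the 3 genes for the c subunit of the rotor, Atp5g3 fell (-0.38), and Atp5g1 and Atp5g2 were not called (-0.01 and 0.12).

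**Figure D4:**
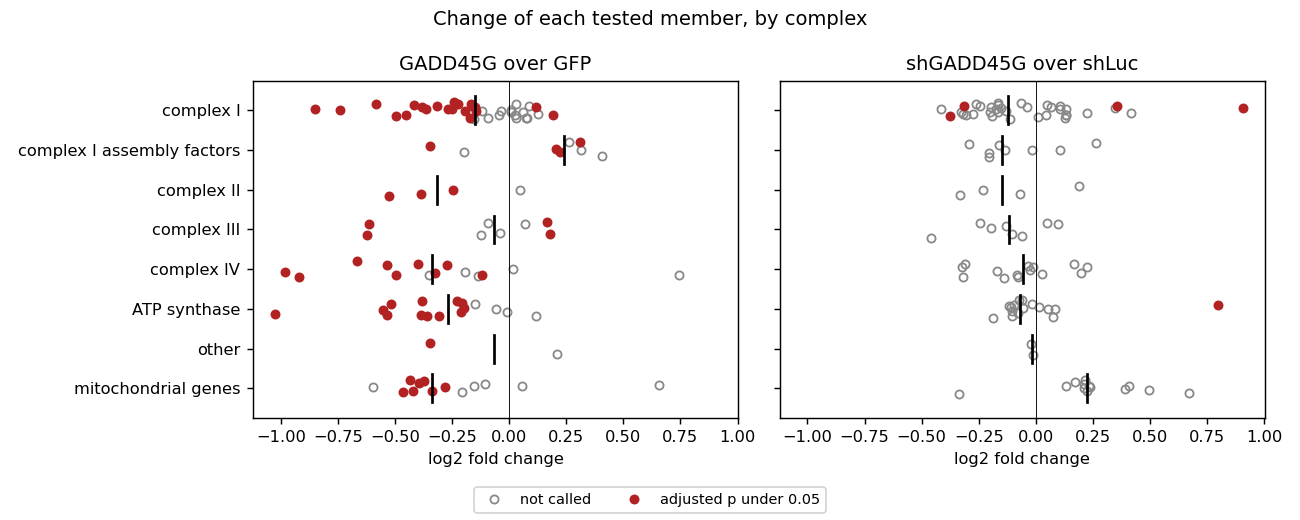
Log2 fold change of each tested member in the overexpression experiment (left) and the knockdown experiment (right), by complex, with the 13 mitochondrial genes in the bottom row. Filled points had an edgeR adjusted p under 0.05 over all genes, open points did not, and the bar is the median of the row. On the left the medians are -0.34 for complex IV, -0.32 for complex II, -0.27 for the ATP synthase and 0.24 for the complex I assembly factors.

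In the knockdown experiment the 5 nuclear members called were 4 subunits of complex I and 1 of the ATP synthase, and none of the 14 tested subunits of complex IV, the 8 of complex III or the 4 of complex II was called with edgeR (Uqcrfs1, Cox7b, Cox7a2, Sdha and Sdhb had an unadjusted p under 0.05, and DESeq2 called Sdha). Atp5mpl, a small proteolipid of the ATP synthase membrane part, stood at 31.9, 39.8 and 32.7 CPM with shLuc and at 58.3, 60.2 and 63.0 CPM with shGADD45G, with no overlap (log2 fold change 0.80 ± 0.10, edgeR adjusted p = 0.0016). It was called in every fit with 1 library left out. Ndufb2 stood at 2.41, 3.83 and 3.37 CPM against 5.64, 7.12 and 5.30 CPM (0.91 ± 0.23, edgeR adjusted p = 0.032), and Ndufa6, an accessory subunit, at 61.4, 56.7 and 54.4 CPM against 72.5, 78.2 and 69.7 CPM (0.35 ± 0.086, edgeR adjusted p = 0.029).

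Ndufb7, an accessory subunit at the face towards the intermembrane space, fell from 66.8, 64.6 and 69.0 CPM to 54.1, 54.1 and 46.3 CPM (-0.37 ± 0.090, edgeR adjusted p = 0.028). Ndufs3, a core subunit, fell from 94.8, 96.1 and 94.3 CPM to 71.7, 80.5 and 77.4 CPM (-0.31 ± 0.078, edgeR adjusted p = 0.031). The calls of Ndufb2, Ndufa6, Ndufb7 and Ndufs3 were each lost without any one shLuc library (edgeR adjusted p = 0.071 to 0.16), and those of Ndufb2 and Ndufa6 also without shGADD45G library 2 (0.093 and 0.068). Of the windows of Ndufs3, 19.9% were shared with other transcripts.

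All 5 genes called in the knockdown experiment were also called in the overexpression experiment, whose controls are separate. Atp5mpl, Ndufb2 and Ndufa6 fell with GADD45G (-0.53, -0.85 and -0.19) and rose with shGADD45G, whereas Ndufb7 and Ndufs3 fell in both (-0.45 and -0.16 with GADD45G). In the overexpression experiment 61.4% of the tested nuclear members were called, so a second call is no rare event.

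shGADD45G library 3 stood apart from shGADD45G libraries 1 and 2 and from the shLuc libraries in the nuclear members as well as in the mitochondrial ones. Among the 85 nuclear members with at least 5 CPM in both groups, 22 lay more than 0.5 below the shLuc mean on the log2 scale in this library. In shGADD45G libraries 1 and 2, 0 did so. In GADD45G libraries 1, 2 and 3, 7, 17 and 12 of 85 lay as far below the GFP mean. The share of all genes that did so was not computed, so these counts do not show a trait particular to the nuclear members. Over genes with a mean of at least 20 counts in a pair, library 3 also differed from shGADD45G libraries 1 and 2. The chi-square per degree of freedom was 41.0 and 20.5, and it was 24.9 between libraries 1 and 2. Atp5k stood at 29.5, 33.8 and 30.7 CPM with shLuc and at 42.6, 35.4 and 8.89 CPM with shGADD45G. Uqcr11 stood at 109, 110 and 99.3 CPM against 94.8, 95.8 and 40.2 CPM, and Cox5b at 118, 125 and 113 CPM against 116, 118 and 50.4 CPM. In library 3 the log2 difference from the shLuc mean was -1.82 for Atp5k, -1.40 for Uqcr11, -1.39 for Ndufb3, -1.24 for Cox5b and -1.10 for Ndufs6. None of these 5 genes was called in the comparison of the groups, and they are named here because of these values. Without library 3 the median of the nuclear members was -0.0028.

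**Figure D5:**
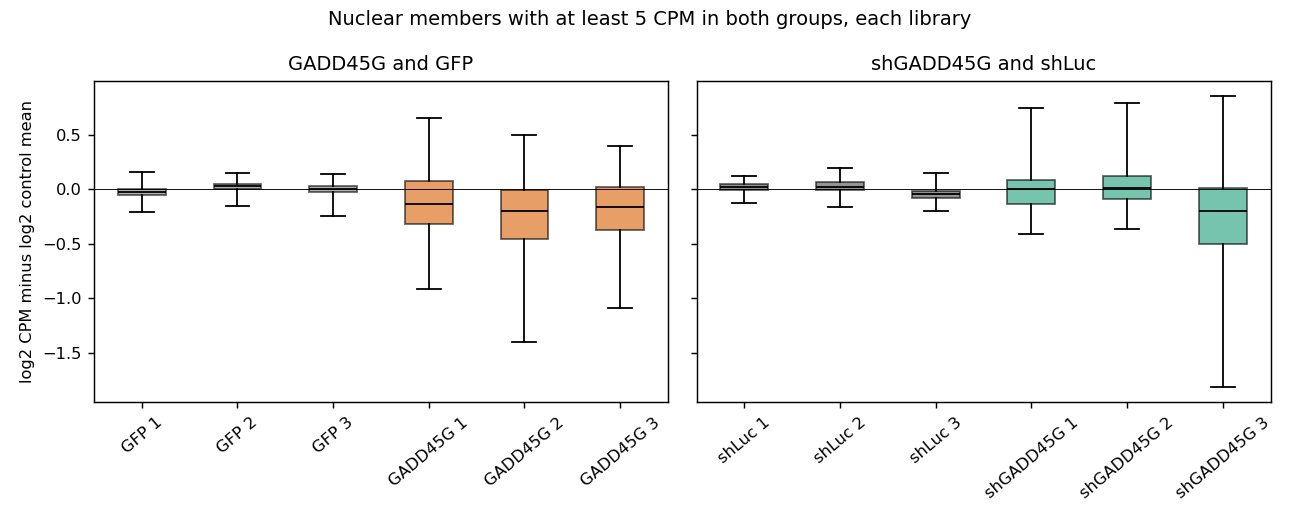
Log2 CPM of each library minus the log2 of the control mean, over the 85 nuclear members with at least 5 CPM in both groups. Boxes span the quartiles, the line is the median and whiskers run to the lowest and highest gene. The medians are -0.13, -0.20 and -0.17 in the GADD45G libraries and 0.00064, 0.014 and -0.20 in the shGADD45G libraries, where library 3 has the longest lower whisker.

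Many nuclear members are short, and the medians moved with listed gene length, but not in the knockdown experiment without shGADD45G library 3. The classes below use that length, which can exceed the longest annotated transcript. For Cox4i1 it is 1550 against 765 bases and for Cox5b 1587 against 865, so some members classed as longer have short transcripts. With GADD45G the median log2 fold change was -0.27 over the 21 tested nuclear members of up to 1000 bases and -0.16 over the 67 longer ones, against -0.08 and 0.03 over the other protein-coding genes in the same classes. Without GADD45G library 3 these medians were -0.24 and -0.16 for members and -0.17 and 0.02 for the other genes. With all libraries, 57.1% of the shorter and 52.2% of the longer members were called lower with GADD45G, against 32.0% and 30.7% of the other genes. With shGADD45G the members' medians were -0.17 and -0.06, against -0.06 and 0.01 over the other genes. Without shGADD45G library 3 the members' medians were 0.0088 and -0.0036, against 0.03 and 0.0090. The part of transcript length in the result was not tested.

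The promoters of nuclear respiratory genes are known for sites of NRF1, of GABPA (also called NRF2), of YY1 and of the estrogen-related receptors, which are regulators of mitochondrial gene expression. Promoters of 300 bases (250 before and 50 after the start, RefSeq, GRCm38.p6) were matched to 72 of the 88 nuclear members tested, and 4 strings were searched on both strands. A gene was counted if any of its listed promoters held the string, and some genes, such as Atp5j, have more than 1. CGCATGCG, the core of the NRF1 motif, was found for 15.3% of these members and for 4.16% of 10655 tested protein-coding genes. AAGATGGC (YY1) was found for 13.9% and 4.97%, CAAGGTCA (estrogen-related receptors) for 5.56% and 1.31%, and CCGGAAGT (GABPA) for 6.94% and 8.61%. The GABPA string was found for 5 of the 40 members that fell with GADD45G and for 0 of the 32 others. For the NRF1 string these numbers were 5 of the 40 and 6 of the 32, and for the YY1 string 6 and 4. For the estrogen-related receptor string they were 2 and 2. These matches are descriptions of the letters, and their difference was not tested.

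The 120 bases before the start are printed below for 4 members that fell with GADD45G and whose promoter holds a match, 2 with the GABPA string (Uqcr11 and Uqcrh) and 2 with the NRF1 string (Atp5k and Ndufa11), with the match in capitals. Atp5h (GABPA string), Atp5j (YY1 string) and Atp5g3 (estrogen-related receptor string) also fell and hold a match in such a stretch, and are not printed. The 300-base promoter of Uqcr11 also holds the NRF1 string, outside the printed stretch. In GRCm38 the 4 printed stretches lie, in the order below, at chr10:80406822-80406941 (minus strand), chr4:116075071-116075190 (minus strand), chr5:108434400-108434519 (minus strand) and chr17:56717642-56717761 (plus strand).
Uqcr11: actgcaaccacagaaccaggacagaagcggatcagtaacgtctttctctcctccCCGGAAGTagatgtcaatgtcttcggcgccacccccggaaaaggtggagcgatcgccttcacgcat
Uqcrh: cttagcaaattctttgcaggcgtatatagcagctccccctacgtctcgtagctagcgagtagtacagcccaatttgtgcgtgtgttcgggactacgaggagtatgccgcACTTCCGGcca
Atp5k: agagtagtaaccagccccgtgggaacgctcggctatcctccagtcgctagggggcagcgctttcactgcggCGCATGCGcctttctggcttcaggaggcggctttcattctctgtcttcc
Ndufa11: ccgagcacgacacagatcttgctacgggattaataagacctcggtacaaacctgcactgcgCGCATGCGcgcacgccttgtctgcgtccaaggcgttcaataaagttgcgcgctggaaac

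Other genes of mitochondrial respiration are given as counts, to be read against the 30.6% of all genes called higher and the 29.7% called lower with GADD45G, and the 5.15% and 5.27% with shGADD45G. With shGADD45G an unadjusted p under 0.05 was found in 3790 of the 14914 genes tested. Whether a list differs from those shares was not tested. Of 11 tested regulators of mitochondrial biogenesis, 2 fell and 2 rose with GADD45G. Nrf1, the transcription factor that binds the NRF1 motif, fell from a mean of 33.4 to 22.5 CPM (-0.57 ± 0.089, edgeR adjusted p = 0.00021), and Esrra, the estrogen-related receptor alpha, from 53.7 to 41.9 CPM (-0.36 ± 0.056, edgeR adjusted p = 0.00023). Pprc1, a coactivator of the PGC-1 family, rose (0.38, edgeR adjusted p = 0.00051), as did Ppard, a nuclear receptor (0.20, edgeR adjusted p = 0.017). With shGADD45G 0 of the 11 were called with edgeR and limma-voom and 1 with DESeq2, and 3 had an unadjusted p under 0.05.

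Of 23 genes of mitochondrial transcription and RNA handling 8 rose and 2 fell with GADD45G (median 0.29), among them Tfb2m, a mitochondrial transcription factor (20.76 to 31.2 CPM, log2 fold change 0.59, edgeR adjusted p = 2.03e-05), and Lrpprc, which stabilises mitochondrial messenger RNAs (0.32, edgeR adjusted p = 0.00027). Pnpt1, a mitochondrial RNA-degrading enzyme, rose as well (0.97, edgeR adjusted p = 2.72e-08), and Hsd17b10, a subunit of mitochondrial RNase P, and Fastkd5, an RNA-binding protein, fell (-0.56 and -0.57, edgeR adjusted p = 5.0e-06 and 0.016). Of 77 mitochondrial ribosomal proteins 27 rose and 10 fell (median 0.15), and of 13 genes of mitochondrial DNA maintenance 5 rose and 2 fell (median 0.13). With shGADD45G, Lrpprc rose as well (0.38, edgeR adjusted p = 0.035), 0 of the 77 ribosomal proteins were called with edgeR and limma-voom (2 with DESeq2, and 8 at an unadjusted p under 0.05), and Rrm2b, a ribonucleotide reductase subunit that supplies nucleotides for mitochondrial DNA, rose (0.41, edgeR adjusted p = 0.042).

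Among 22 electron carriers and donors 9 rose and 4 fell with GADD45G, including Cycs, cytochrome c, which fell from 83.2 to 67.4 CPM (-0.30, edgeR adjusted p = 0.00020), and Etfa, a subunit of the electron transfer flavoprotein, which rose from 106 to 144 CPM (0.44, edgeR adjusted p = 9.01e-06). Of 35 assembly factors of complexes II to V 6 rose and 10 fell (median -0.05), and of 9 further assembly factors of complex I 2 rose and 2 fell. With shGADD45G, edgeR called 0 of the carriers and of both groups of assembly factors, where 4, 5 and 2 genes had an unadjusted p under 0.05 and DESeq2 called 1, 1 and 0. Of 16 genes of inner membrane exchange, uncoupling and cristae 3 rose and 7 fell. Atpif1, the inhibitor protein of the ATP synthase, fell with GADD45G (-0.46, edgeR adjusted p = 0.0013) and rose with shGADD45G (0.47, edgeR adjusted p = 0.00995).

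Of 23 genes of the citric acid cycle and pyruvate dehydrogenase 8 rose and 4 fell with GADD45G, and 0 rose and 5 fell with shGADD45G. Pdha1, the E1 alpha subunit that commits pyruvate to oxidation, fell in both, from 311 to 178 CPM with GADD45G (-0.80, edgeR adjusted p = 1.01e-07) and from 282 to 222 CPM with shGADD45G (-0.34, edgeR adjusted p = 0.028). Suclg2, a subunit of succinyl-CoA synthetase in the cycle, fell with shGADD45G (-0.35, edgeR adjusted p = 0.019). Of 12 hypoxia-responsive genes 5 rose and 4 fell with GADD45G, and 1 rose and 1 fell with shGADD45G. Vegfa, a secreted growth factor, rose in both (1.44 and 0.97, edgeR adjusted p = 2.86e-09 and 0.00051), and Slc2a1, the glucose transporter GLUT1, rose with GADD45G and fell with shGADD45G (0.73 and -0.38, edgeR adjusted p = 1.85e-07 and 0.018).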

How the data were processed

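Members and gene lists were chosen with earlier results of these data known. The read counts per gene, deposited in a table for each experiment, are the values used here. The deposited signal columns are counts divided by 1 size factor per library. The deposited FPKM values, scaled by the authors for length and depth, were not used, nor were the authors' log2 fold changes and p-values. Per the submitters' processing notes, STAR 2.5, mm10, HTSeq 0.6.1 and DESeq2 were used. The kit was stranded per the labels, but how strand was set in the counting is not stated there, so reads from opposite strands may not be separated.

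The 6 libraries of an experiment were fitted together, apart from the other experiment, with edgeR 4.0.16 (R 4.3.3): filterByExpr, TMM factors, quasi-likelihood F test, no covariate, Benjamini-Hochberg adjustment over all genes tested. CPM used the TMM factors, and TPM used the counts and the gene lengths of the tables. Fits were tested on simulated data. Shared sequence was measured on GENCODE M21 transcripts in windows of 100 bases; all 105 members were in that annotation and 99 had the same coordinates. Depth was 15626655 to 20756461 counts per library. Summed shares were compared by an exact permutation test of log2 values, which had not been planned. Alternatives were RLE and upper quartile factors, mitochondrial rows left out of the library sizes, DESeq2 1.42.0, limma-voom (limma 3.58.1), no filter, a filter of 1 CPM in 3 libraries, structural subunits only, a block for the replicate number, leaving out single libraries and all 12 libraries in 1 fit.

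The named genes were all mitochondrial genes, up to 2 called members per direction in each role group with the largest change and a mean of at least 1 CPM, the isoform pairs, the Sdh genes, up to 3 called genes per other list and direction with the smallest p, and Gadd45g. Members named beyond this rule, such as Ndufs3, Ndufs7, Ndufaf3, Cox5b, Uqcr11 in the knockdown experiment and several ATP synthase subunits, were added after their values were seen. One gene that the rule takes is not reported here.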

Additional observations from a re-analysis of the deposited data

How the results depend on the processing

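With GADD45G, the median of the nuclear members stayed between -0.21 and -0.16 and that of the mitochondrial genes between -0.38 and -0.28 under all alternatives run. The number of nuclear members called higher, 7, was 4 among structural subunits, 3 without a filter, 2 with all 12 libraries in 1 fit and 2 to 11 with 1 library left out (2 without GFP library 1 and 11 without GADD45G library 3). Of the mitochondrial genes 3 were called lower with all 12 libraries in 1 fit and 7 to 10 with 1 library left out. In the knockdown experiment, nuclear members called lower numbered 4 with upper quartile factors, 8 with all 12 libraries in 1 fit and 0 to 7 with 1 library left out, and those called higher 1 to 6 with 1 left out. Without any one shLuc library 1 rose and 0 fell, and without shGADD45G library 1 there were 6 higher and 7 lower, without library 2 of that group 1 and 4, and without library 3 there were 4 and 4. Mitochondrial genes called higher numbered 0 to 4 with 1 library left out, and their median ran from -0.09 to 0.44, reversed to -0.0947 without shGADD45G library 3. Over all genes, 1349 higher and 1321 lower were called with all 12 libraries in 1 fit, and 239 to 1379 higher and 291 to 1366 lower with 1 library left out. The causes were not tested. The labels do not say whether replicate numbers pair the libraries. Correlations of same-numbered deviations were -0.03 to 0.0089 in the overexpression and -0.02 to 0.12 in the knockdown experiment. In the knockdown experiment replicates 2 and 3 had 0.12 and 0.092, and their crossed pairs -0.11 and -0.12. With 3 libraries a group, these values cannot decide whether libraries were paired. With the replicate number as a block, 7 nuclear members were higher and 46 lower with GADD45G and 4 higher and 2 lower with shGADD45G, while 7 and 0 mitochondrial genes were called. Over the 7 mitochondrial genes with at most 50% of windows shared, mt-Atp8 among them, the medians were -0.37 with GADD45G and 0.21 with shGADD45G. This alternative was chosen after seeing the data. With 3 libraries a group, small changes of low genes such as Ndufb2 and mt-Atp8 were poorly resolved.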
